A study of Physcomitrium patens with 3 samples.

Results

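The comparison set double-stranded RNA in the rdr6 mutant of the moss Physcomitrium patens against that in the rdr2 mutant, over stretches of the nuclear genome. Loci listed on nuclear scaffolds were joined into a region when consecutive loci lay within 10 kb of each other, and reads were summed per region. Of 14148 nuclear regions, the 2282 with at least 20 reads over both mutant libraries were examined. A further 5055 regions had 1 to 19 reads and 6811 had none in either mutant. The regions were thus selected on their reads in these mutant libraries, and all values of this contrast are given as a description of these libraries. At the edge of the threshold, the 41 regions with exactly 20 reads had between 7 and 20 of them in rdr6 (median 16), and the 44 regions with 19 reads had between 6 and 19 (median 13.5).

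The tissue was 10-day-old protonemata, the filamentous juvenile stage of the moss, and each of the wild type, rdr2 and rdr6 genotypes was represented by 1 library. After depletion of ribosomal RNA, total RNA was treated with a ribonuclease that cuts single strands, and libraries were built with a small RNA kit. The labels give no allele, and the sources used here do not say how the mutants were made or how many lines each stands for. The table of the library labelled rdr2 is named rdr1, and rdr2 below means the library with that label. The loci carry no gene names, so that the RDR2 and RDR6 genes, protonema markers and exonic or intronic position were not checked here.

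RNA-dependent RNA polymerases copy a single-stranded transcript into double strands, which Dicer-like enzymes then cut into small interfering RNAs. In flowering plants and in this moss, RDR2 serves the pathway of heterochromatic small interfering RNAs, which guide DNA methylation at transposons and repeats. RDR6 serves that of trans-acting small interfering RNAs, for which a microRNA first cleaves the precursor transcript, and moss without RDR6 passes faster from protonema to leafy buds. Double strands also form without any polymerase, where a transcript folds back on itself as a hairpin or pairs with a transcript of the other strand. Reads protected from the nuclease can come from any of these sources, and the tables do not separate them.

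Abundant loci made up nearly all nuclear reads, and unequally so. The 400 loci with most reads over the 3 libraries, 368 of them nuclear, left only 1.09% of nuclear reads outside them in rdr2, against 3.96% in rdr6 and 3.56% in wild type. Nuclear reads totalled 7375356 in rdr2, 5364278 in rdr6 and 4188599 in wild type. The libraries were scaled to the nuclear reads outside these 400 loci, which numbered 80477 in rdr2, 212247 in rdr6 and 149017 in wild type. A level below is the number of reads per 100000 of those scaling reads. A single read was thus a level of 1.24 in rdr2, 0.471 in rdr6 and 0.671 in wild type, and a floor of 3 reads, about what a count of 0 allows, was a level of 3.73, 1.41 and 2.01. The shallower rdr2 scale limits what can be seen at low regions. Apart from the read minimum, treated at the end, its part in the calls was not tested.

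On this scale regions differed in both directions. The median log2 ratio of rdr6 to rdr2 was 0.11, with an order-statistic 95% interval from 0.02 to 0.18 that treats regions as independent, and its place near 0 follows largely from the scaling. The ratio lay within 2-fold at 1225 regions, 53.7% of those examined, and the counting interval excluded equal levels at 1300. A size rule was used for calls, namely a ratio of at least 4 whose exact 95% counting interval lay wholly beyond 2-fold. It was met by 207 regions higher in rdr6 (9.07%) and by 121 lower in rdr6 (5.30%), on 141 and 102 scaffolds. With 1 library per genotype there is no replicate check and no test, and intervals cover counting error only. A ratio of 4 was also reached by 59 higher and 8 lower regions whose intervals were too wide for a call.

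**Figure D1:**
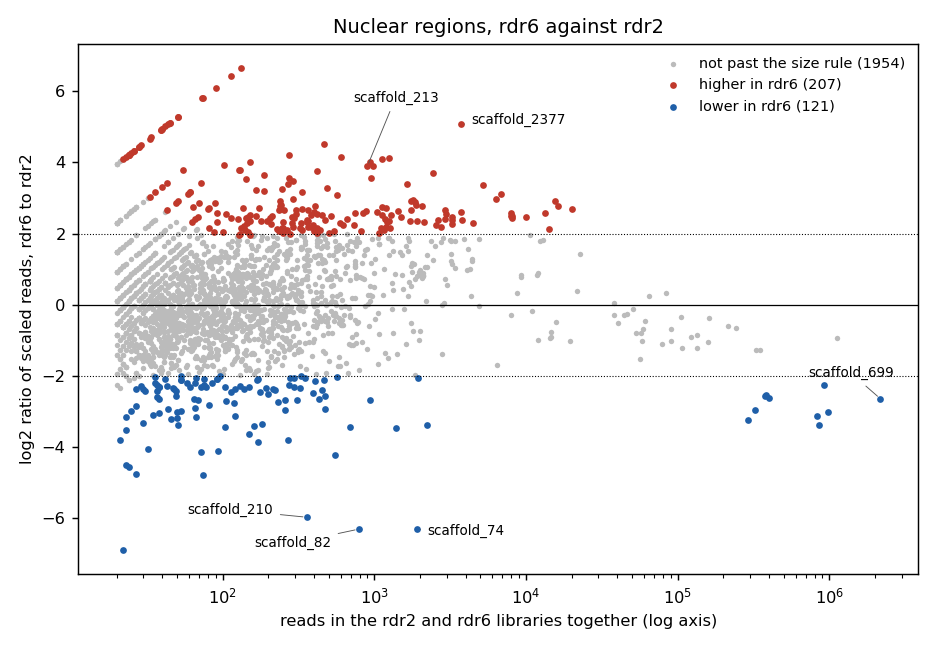
Each point is a nuclear region, placed by its reads in both mutant libraries together (log axis) and by the log2 ratio of scaled reads in rdr6 to rdr2, with dotted lines at a ratio of 4 in either direction. The 207 regions higher in rdr6 are red and the 121 lower are blue, and blue points return at the far right, among the most abundant regions.

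The split depends on how the libraries are scaled. On the deposited reads-per-million scale, which divides by the whole library, 800 regions were higher in rdr6 and 17 lower, and the median log2 ratio was 1.56. Scaled to all nuclear reads, 1064 were higher and 10 lower, with a median of 1.97. Scalings that set aside or trim the abundant loci, or that take a median ratio, gave 172 to 249 higher and 101 to 149 lower. Of the 207 higher regions, 172 were called under every scaling tried, and of the 121 lower regions, 10 were. Another scaling moves every ratio by the same amount, so both counts are set by the scalings farthest from that used in the text. The median log2 ratio, 0.11 on the scale used, rose to 1.97 but fell no lower than -0.077. Most of the shift tried was thus upward, and these counts do not compare how firm higher and lower calls are.

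**Figure D2:**
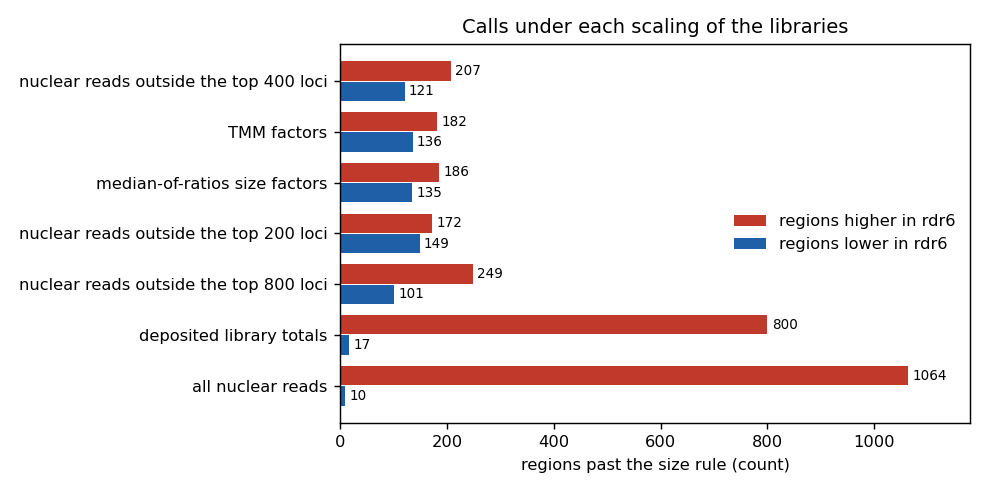
Bars give the number of regions past the size rule in each direction (x axis, count) under 7 scalings of the libraries, the first being the one used in the text. The 5 scalings that set aside or trim abundant loci or take a median ratio give between 172 and 249 higher and between 101 and 149 lower. Dividing by library totals or by all nuclear reads gives 800 and 1064 higher.

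The higher regions were compact. Their loci covered a median of 151 bp, against 539 bp in the lower regions and 474.5 bp over all regions examined. They consisted of a single listed locus at 75 of 207 regions (36.2%), against 18 of 121 lower regions (14.9%) and 364 of all 2282 (16.0%). In the higher regions the locus with most reads held a median of 100% of the reads of the region, in the lower regions 91.7%, and over all regions 84.2%. At least 97.2% of the reads came from that locus in 3 of every 4 higher regions.

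Higher and lower regions differed in the length of that leading locus. It was 91 to 120 bp long in 129 regions, of which 39 were higher in rdr6 (30.2%) and 4 lower. It was 121 to 150 bp long in 157 regions, of which 41 were higher (26.1%) and 3 lower. Both shares of higher calls lie well over the 9.07% of all regions. Where the leading locus exceeded 1200 bp, 3 of 145 regions were higher and 20 lower (13.8%), against 5.30% overall. Classes also differed in depth, with a median of 172 reads for leading loci of 91 to 120 bp and 316 for those over 1200 bp. Among the 636 regions with at least 200 but under 10000 reads, 119 were higher (18.7%) and 32 lower (5.03%). Of these, 30 of 57 with a leading locus of 91 to 120 bp were higher and none lower, and 27 of 55 with one of 121 to 150 bp were higher and 1 lower. In the same range of reads, 1 of 70 regions led by a locus over 1200 bp was higher and 9 were lower. The median log2 ratios of these 3 classes in that range were 2.08, 1.96 and -0.76. The range was set on the same reads as the calls, and a given level takes more reads in rdr6 than in rdr2. It can thus favour higher calls, and its part in these shares was not tested. Another scaling shifts all classes by the same amount and leaves their order. Regions led by a locus of 30 bp or shorter were found in both directions, with 57 higher and 44 lower of 504.

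**Figure D3:**
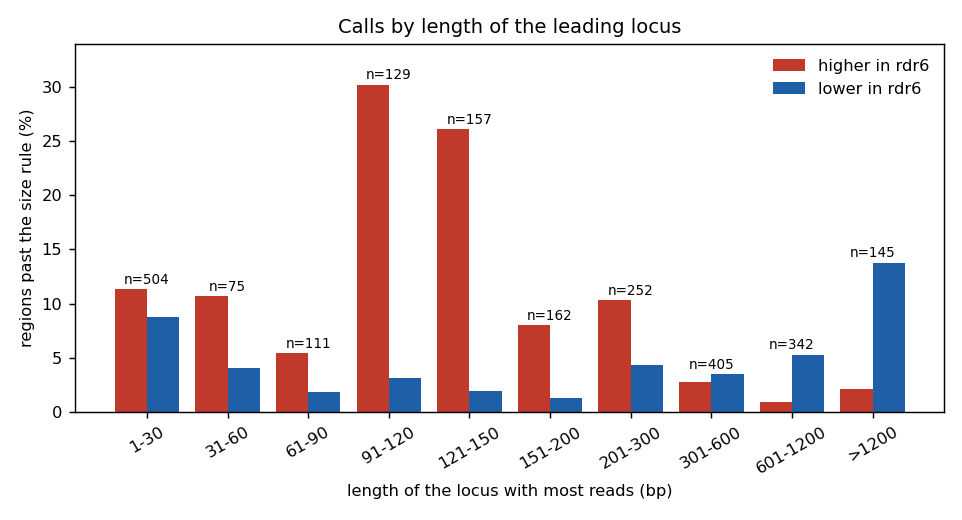
Bars give the percentage of regions past the size rule, higher (red) or lower (blue) in rdr6, by the length in bp of the locus with most reads, with the number of regions over each pair. Higher calls reach 30.2% and 26.1% for leading loci of 91 to 120 bp and 121 to 150 bp, and lower calls reach 13.8% for those over 1200 bp.

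In the higher regions the median level of wild type stood nearer to that of rdr6. The median was 22.4 in rdr2, 99.3 in wild type and 127 in rdr6. Wild type lay between or at the mutant levels at 172 of 207 higher regions (83.1%), above both at 29 and below both at 6. In the lower regions the median was 84.5 in rdr2, 27.5 in wild type and 12.7 in rdr6, and wild type lay between or at the mutant levels at 97 of 121 (80.2%), above both at 2 and below both at 22. Over all regions examined, wild type lay between or at them in 51.6%. A region called between the mutants has a wide gap for the third library to fall into, so these counts describe levels only. Any ratio to wild type shares a library with the contrast.

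The region with the interval farthest from equal levels among those higher in rdr6 was a single locus on scaffold_2377 (29 to 251, Cluster_39749). It had 41 reads in rdr2, 3682 in rdr6 and 2166 in wild type, or levels of 50.9, 1735 and 1454. Only rdr2 was low. The ratio was 34.1-fold higher in rdr6 (25.1 to 47.5). A region of the same pattern on scaffold_410 (29097 to 29251, Cluster_37312) had 7 reads in rdr2, 456 in rdr6 and 348 in wild type, 24.7-fold higher in rdr6 than in rdr2 (11.9 to 61.8). The region on scaffold_34 (2135023 to 2140784) had 26, 1228 and 1150 reads in the same order, 17.9-fold higher (12.2 to 27.5). Within it the difference belonged to the 122-bp Cluster_8975, which was 28.8-fold higher in rdr6 (17.6 to 50.5). Its 18-bp neighbour Cluster_8974 had 10 reads in rdr2 and 14 in rdr6, a level 1.88-fold lower in rdr6 with an interval that includes equal levels (0.749 to 4.56).

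In 5 other regions, as on scaffold_2377, wild-type levels lay between those of the mutants. On scaffold_410 and scaffold_34 wild type was above both, at 1.09-fold and 1.33-fold of rdr6. On scaffold_197 (312641 to 312884) there were 69 reads in rdr2, 2372 in rdr6 and 1127 in wild type, 13.0-fold higher in rdr6 (10.3 to 16.8). On scaffold_246 (118019 to 118046), a locus of 28 bp, there were 24, 1098 and 550 reads, 17.3-fold higher (11.6 to 27.2). On scaffold_41 (1265696 to 1265847) there were 12, 588 and 215 reads, 18.6-fold higher (10.6 to 36.2). In all 3 the level of wild type was closer to rdr6 than to rdr2 on a log scale. The region on scaffold_100 (1351848 to 1359028), whose reads all fell in the 90-bp Cluster_19258, had 21, 917 and 242 reads and levels of 26.1, 432 and 162, 16.6-fold higher in rdr6 (10.8 to 26.9). The region on scaffold_207 (620659 to 629843) differed in build, with 6 loci holding reads and a leading locus of 1684 bp. It had 24 reads in rdr2, 956 in rdr6 and 587 in wild type, 15.1-fold higher in rdr6 (10.1 to 23.7). Both of its main loci shared the direction, with Cluster_28339 at 16.7-fold (10.5 to 28.4) and Cluster_28338 at 18.8-fold higher (6.32 to 92.4).

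In 3 other regions rdr6 alone was high and wild type had few reads. The region on scaffold_213 (572373 to 574485) had 22 reads in rdr2, 878 in rdr6 and 34 in wild type, or levels of 27.3, 414 and 22.8. It was 15.1-fold higher in rdr6 than in rdr2 (9.93 to 24.3). The difference ran through the region: Cluster_28751 was 11.2-fold higher (6.89 to 19.3), Cluster_28752 18.7-fold higher (7.92 to 58.2), and Cluster_28748 had 0 reads in rdr2 and 120 in rdr6. The locus on scaffold_8 (2028588 to 2028601), 14 bp long, had 0 reads in rdr2, 132 in rdr6 and 2 in wild type. Against a floor of 3 reads in rdr2 it was 16.7-fold higher in rdr6, and its exact interval began at 13.4-fold. The locus on scaffold_123 (1226300 to 1226715) had 0, 113 and 9 reads. It was 14.3-fold higher against that floor, with an interval that began at 11.4-fold. By contrast, the 43-bp locus on scaffold_641 (12737 to 12779) had 0 reads in rdr2, 90 in rdr6 and 68 in wild type. Its levels were 42.4 in rdr6 and 45.6 in wild type. Against the floor it was 11.4-fold higher in rdr6, with an interval that began at 9.06-fold. No rdr2 read was found in 29 of the 207 higher regions and in 33 of all 2282 examined. Regions without an rdr2 read have all their reads in rdr6, so a higher call is nearly built into the rule.

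**Figure D4:**
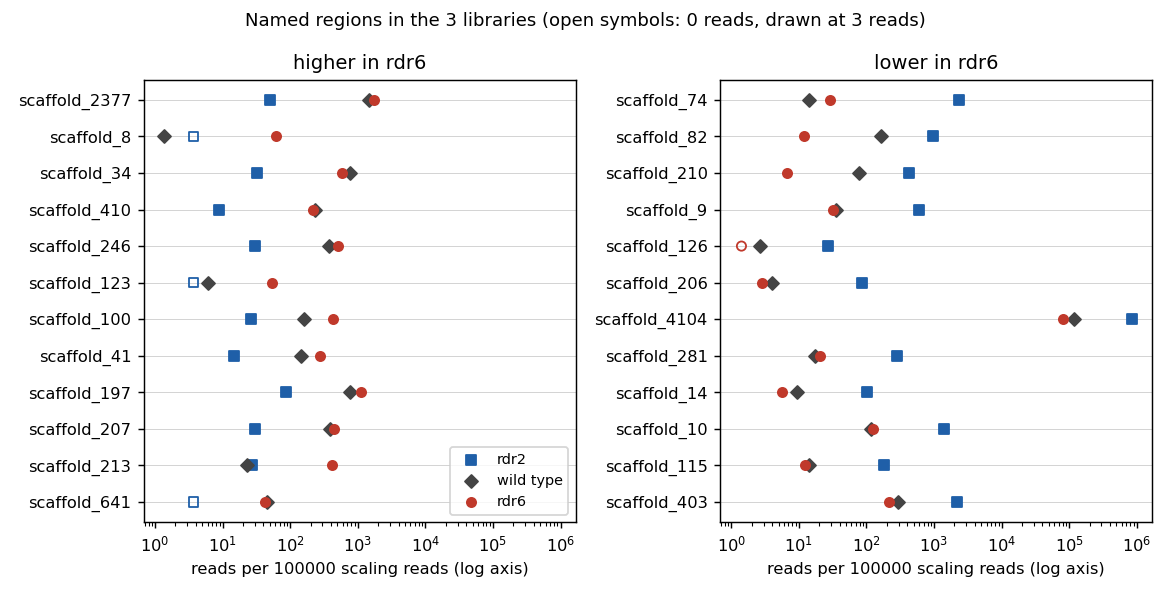
Levels (reads per 100000 scaling reads, log axis) in rdr2, wild type and rdr6 of the 12 higher and the 12 lower regions whose intervals lie farthest from equal levels, each named by its scaffold, with open symbols for 0 reads drawn at the 3-read floor. On the left wild type sits nearer to rdr6 than to rdr2 except on scaffold_8, scaffold_123 and scaffold_213, and on the right it lies between the mutants or, on scaffold_74, scaffold_281 and scaffold_10, below both.

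The higher regions with most loci holding reads showed a smaller difference spread over more loci, or 1 leading locus among many. On scaffold_245 (75771 to 107579) 14 of 19 loci had reads, with 108 in rdr2, 1973 in rdr6 and 903 in wild type, 6.93-fold higher in rdr6 (5.71 to 8.49), but the 112-bp Cluster_30613 held 95.1% of the reads. On scaffold_83 (353376 to 413285) 52 loci were listed and 12 had reads, with 10 in rdr2, 141 in rdr6 and 97 in wild type. That region was 5.35-fold higher in rdr6 (2.82 to 11.4), and its leading locus of 4459 bp held 39.1% of the reads. On scaffold_32 (997817 to 1039339) 10 of 31 loci had reads, with 4, 62 and 43 reads, 5.88-fold higher (2.18 to 22.2), a call lost under TMM scaling and when the top 200 loci alone were set aside.

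A few lower regions held most rdr2 reads. Together the lower regions took 74.3% of all rdr2 reads in the regions examined, 39.1% of those of rdr6 and 44.6% of those of wild type, and the 5 with most rdr2 reads, on scaffold_699, scaffold_758, scaffold_4104, scaffold_73 and scaffold_557, alone took 56.8% of those of rdr2. The higher regions took 0.205%, 4.61% and 2.92%. Raw reads per region ran the other way. Their median over both mutants was 96 in the lower regions and 287 in the higher. A given level takes more reads in rdr6 than in rdr2, which raises such sums in the higher regions. The median level was 127 in rdr6 in the higher regions, against 84.5 in rdr2 in the lower. Of 59 regions with 10000 or more reads, 10 were lower and 6 higher, whereas of 145 regions with at least 1000 but under 10000 reads, 4 were lower and 49 higher.

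Of the 12 lower regions with intervals farthest from equal levels, 8 were among the 10 called under every scaling. They included 2 in which several loci were nearly silent in rdr6 and wild type stood between the mutants. The region on scaffold_82 (31723 to 40098) had 764 reads in rdr2, 25 in rdr6 and 242 in wild type, or levels of 949, 11.8 and 162. It was 80.6-fold lower in rdr6 than in rdr2 (54.2 to 125). All of its 3 loci lay on the same side, with Cluster_16760 at 115-fold (57.6 to 268), Cluster_16761 at 81.4-fold (47.0 to 154) and Cluster_16762 at 9.89-fold lower (3.15 to 40.9). The last had only 15 reads in rdr2 and 4 in rdr6.

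The region on scaffold_210 (793753 to 803986) had 344 reads in rdr2, 14 in rdr6 and 117 in wild type, or levels of 427, 6.60 and 78.5. It was 64.8-fold lower in rdr6 (38.1 to 120). Reads were spread over 4 loci, of which none held more than 36.3%. Cluster_28557, Cluster_28556 and Cluster_28553 were 136-fold (36.7 to 1137), 98.5-fold (32.8 to 485) and 46.3-fold lower (21.8 to 118). The first of these had 103 reads in rdr2 and 2 in rdr6. Wild type had 11.9-fold the level of rdr6 here and 13.8-fold on scaffold_82, whereas on scaffold_14, scaffold_206 and scaffold_4104 it had 1.66-fold, 1.42-fold and 1.44-fold.

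**Figure D5:**
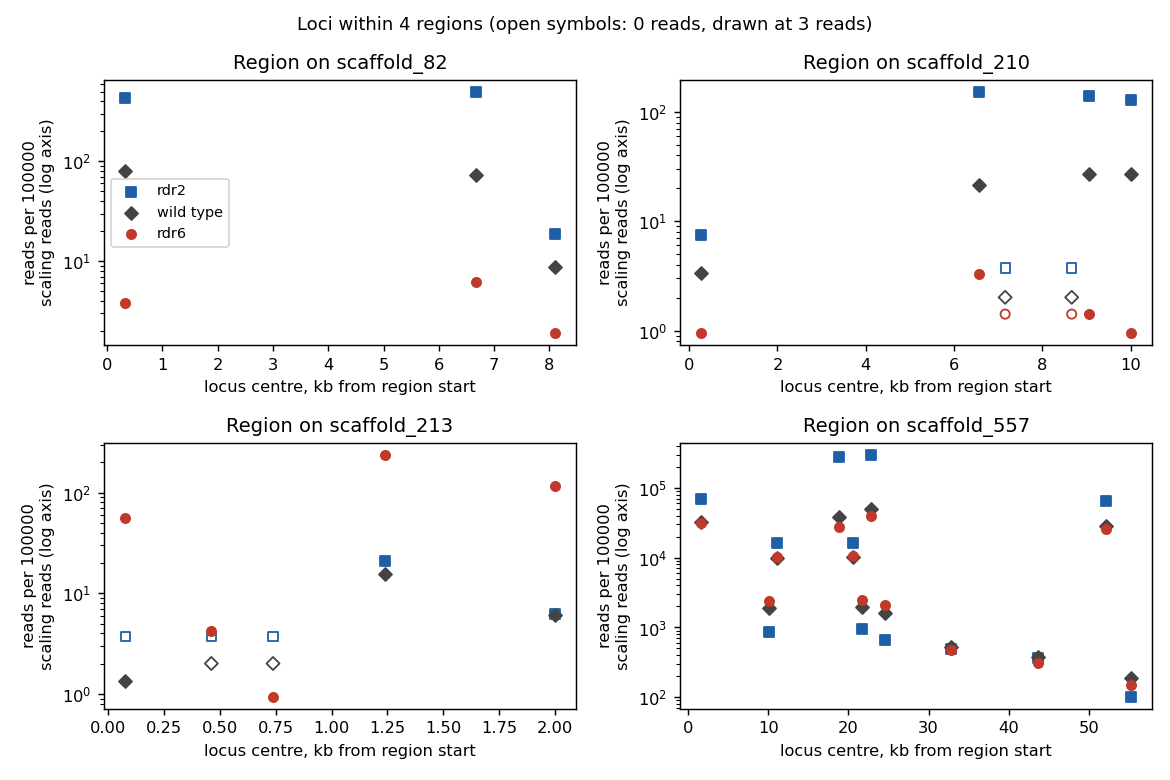
Levels of each locus (reads per 100000 scaling reads, log axis) against its distance in kb from the start of its region, in rdr2, wild type and rdr6, with open symbols for 0 reads drawn at the 3-read floor. On scaffold_82 and scaffold_210 every locus with reads is lowest in rdr6, on scaffold_213 the main loci are highest in rdr6, and on scaffold_557 the most abundant loci are highest in rdr2 while 3 loci of 127 bp are lowest there.

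Other lower regions were high in rdr2 alone. On scaffold_74 (275532 to 276105) all reads fell in the 15-bp Cluster_15637, with 1851 in rdr2, 61 in rdr6 and 21 in wild type, or levels of 2300, 28.7 and 14.1. It was 80.0-fold lower in rdr6 (62.0 to 105). On scaffold_9 (2678979 to 2714952) 7 of 10 loci had reads, with 481 in rdr2, 68 in rdr6 and 52 in wild type, 18.7-fold lower in rdr6 (14.4 to 24.4). There the 296-bp Cluster_3109 was 49.5-fold lower (32.8 to 78.0), whereas Cluster_3113 had 18 and 27 reads and was 1.76-fold lower, with an interval that includes equal levels (0.912 to 3.31). On scaffold_115 (651340 to 662355) there were 144, 26 and 21 reads in rdr2, rdr6 and wild type, 14.6-fold lower in rdr6 (9.57 to 23.1), of which the 134-bp Cluster_20854 held 93.5%. Levels of rdr6 and wild type lay near each other in these regions, with rdr6 at 2.04-fold of wild type on scaffold_74 and wild type at 1.09-fold and 1.15-fold of rdr6 on scaffold_9 and scaffold_115.

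Several lower regions were single loci of 15 to 18 bp. The 16-bp locus on scaffold_206 (710067 to 710082) had 68 reads in rdr2, 6 in rdr6 and 6 in wild type, 29.9-fold lower in rdr6 (13.0 to 84.3). The 15-bp locus on scaffold_14 (2971861 to 2971875) had 82, 12 and 14 reads, 18.0-fold lower (9.78 to 36.3). The 18-bp locus on scaffold_126 (637064 to 637081) had 22 reads in rdr2, 0 in rdr6 and 4 in wild type. It was 19.3-fold lower against a floor of 3 reads in rdr6, and its exact interval began at 14.4-fold. In each, rdr2 alone was high. Loci of 30 bp or shorter held over 50% of the reads at 42 of the 121 lower regions (34.7%), 57 of the 207 higher (27.5%) and 504 of all 2282 (22.1%). How the list came to hold loci this short is not stated in the sources used here. In some other lower regions, more abundant, nearly all reads also fell in a locus this short, and their calls depended on the scaling. The region on scaffold_10 (2283623 to 2285227) had 1123 reads in rdr2, 269 in rdr6 and 172 in wild type, 11.0-fold lower in rdr6 (9.63 to 12.6). The 22-bp locus on scaffold_403 (152492 to 152513) had 1788, 457 and 429 reads, 10.3-fold lower (9.31 to 11.5). The region on scaffold_281 (105657 to 116592) had 229, 43 and 26 reads, 14.05-fold lower (10.1 to 19.9), nearly all in a locus of 8 bp.

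The 5 regions with most rdr2 reads were also lower in rdr6 on this scale. None of these calls held when libraries were divided by deposited totals or by all nuclear reads. The region with most reads, on scaffold_699 (303 to 10023), had 1524454 reads in rdr2, 646321 in rdr6 and 585957 in wild type, 6.22-fold lower in rdr6 (6.20 to 6.24). Its loci differed from each other: Cluster_39121 and Cluster_39122 were 8.77-fold and 8.46-fold lower, while the adjoining Cluster_39120 was 1.39-fold lower (1.38 to 1.40). The region on scaffold_758 (1 to 9174) had 742870 reads in rdr2, 244979 in rdr6 and 227595 in wild type, 8.00-fold lower. There Cluster_39201 was 10.8-fold lower and Cluster_39203 2.08-fold. The regions on scaffold_4104 (629 to 9028) and scaffold_73 (17124 to 20433) were 10.5-fold and 8.78-fold lower, each with nearly all reads in 1 locus. Cluster_39201, Cluster_39121, Cluster_39122 and Cluster_39800 of scaffold_4104 had similar counts in rdr2, from 681399 to 710340. Cluster_15461 of scaffold_73 came near these with 640202. It was not tested whether repeated sequence gives these loci reads in common.

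Within the region on scaffold_557 (23520 to 78960) the loci differed in both directions. The region had 591910 reads in rdr2, 325031 in rdr6 and 263676 in wild type, 4.80-fold lower in rdr6 (4.78 to 4.82). Cluster_38908 and Cluster_38911 were 9.86-fold and 7.41-fold lower in rdr6. In the same stretch 3 loci of 127 bp, Cluster_38906, Cluster_38910 and Cluster_38912, were 2.80-fold, 2.58-fold and 3.19-fold higher in rdr6, with 693, 761 and 532 reads in rdr2 and 5111, 5181 and 4479 in rdr6. Those 3 loci had alike counts and equal lengths, and whether they share reads was not tested either. A similar arrangement was seen on scaffold_571 (14 to 40516), the uncalled region with most reads, at 473035 reads in rdr2, 651978 in rdr6 and 460645 in wild type. It was 1.91-fold lower in rdr6, but its 2 loci of 124 bp, Cluster_38949 and Cluster_38951, were 2.69-fold and 2.82-fold higher. On the deposited scale that region was higher in rdr6 than in rdr2, as were the other 3 abundant uncalled regions, on scaffold_3506 (2 to 9357), scaffold_2178 (15 to 9872) and scaffold_685 (1 to 10907), which were 2.41-fold, 2.41-fold and 1.58-fold lower in rdr6 here.

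The lower regions with most loci holding reads besides scaffold_557 were close to the threshold of the size rule. On scaffold_2 (4493718 to 4523257) 16 of 27 loci had reads, with 213 in rdr2, 134 in rdr6 and 147 in wild type, 4.19-fold lower (3.36 to 5.24). Cluster_819 and Cluster_828 were 5.18-fold (3.20 to 8.56) and 6.53-fold lower (4.48 to 9.68). Cluster_817, which precedes both on the scaffold, had 13 and 30 reads and a level 1.14-fold lower (0.547 to 2.26). On scaffold_219 (37917 to 47153) all 10 loci had reads, with 57, 35 and 24 reads in rdr2, rdr6 and wild type, 4.30-fold lower (2.77 to 6.74). Neither call held with the reads outside the top 800 loci or on the deposited scale.

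Loci of a called region mostly shared its direction. Single loci with at least 20 reads met the size rule at 9.72% (higher) and 6.43% (lower) over the nuclear genome. In the higher regions 225 of 251 such loci were called higher, and in the lower regions 131 of 177 were called lower. These shares follow largely from the choice of the regions, since loci and regions were called from the same reads. Only 35 of 207 higher and 36 of 121 lower regions had at least 2 such loci, and elsewhere the call of a locus nearly repeats that of its region. The like shares over all 625 regions with at least 2 such loci are not given here. Of 35 higher regions with at least 2 such loci, 29 had all of them on the higher side and 16 had 2 or more called higher. Of 36 lower regions, 34 had all on the lower side and 16 had 2 or more called lower. In 7 lower regions no single locus with 20 reads was called lower, and the call came from the sum. Conversely, 116 uncalled regions held a called locus.

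Opposite calls met in the same region at 3 of 625 regions with at least 2 loci of 20 reads, and these were named after their values were seen. On scaffold_71 (111262 to 115845) the 17-bp Cluster_15136 had 58 reads in rdr2 and 677 in rdr6 and was 4.43-fold higher (3.38 to 5.89), while Cluster_15135, less than 1 kb away, had 17 and 3 reads and was 14.9-fold lower (4.32 to 79.6). On scaffold_252 (538029 to 542654) Cluster_31184 was 4.58-fold higher (2.70 to 8.34) and Cluster_31177 9.04-fold lower (3.78 to 24.9). On scaffold_241 (197401 to 201575) Cluster_30361 had 0 and 24 reads in rdr2 and rdr6, and Cluster_30362 had 18 and 6 and was 7.91-fold lower in rdr6 (3.01 to 24.3). Summed reads placed none of these regions past the size rule.

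Some scaffolds held several called regions. Of the 141 scaffolds with a higher region, 44 held 2 or more, and scaffold_149 and scaffold_22 held 5 each. Of the 102 with a lower region, 17 held 2 or more, and scaffold_14 and scaffold_2 held 3 each. Scaffolds differ in length and in the number of regions examined, so these counts are not a measure of clustering.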

How the data were processed

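Double-stranded RNA libraries of wild type, rdr2 and rdr6 protonemata, 1 per genotype, were compared. Bowtie 0.12.9 and SAMtools are named, without roles, per the submitters' processing notes, whereas build, locus caller, mapping parameters and the handling of multiply matching reads are not stated in the sources used here, so repeated loci may share reads. Per the file headers, the authors deposited for each of 39975 loci (39907 nuclear) a raw read count and an RPM value. Dividing counts by RPM gave the library totals used for the deposited scale, 9703597 reads in rdr2 and 9346061 in rdr6. Strand is not given. Coordinates are those of the tables.

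Ratios of scaled counts had exact Clopper-Pearson 95% intervals from the share of 1 library in the reads of both. Intervals and floors cover counting error only, and PCR copies are not separate molecules. Log2 ratios used a pseudocount of 0.5 reads. No p-values were computed, as nothing measures the spread between libraries of a genotype. Regions named are the 12 higher and 12 lower called regions with interval bounds farthest from 1, the 5 with most reads in each mutant, the 4 uncalled ones with most reads, and the 3 called in each direction with most loci holding reads. Regions, rule and comparison were chosen with earlier results of these data known. TMM factors came from edgeR 4.0.16 in R 4.3.3. Other steps used Python 3.11.15 with pandas 2.3.3, scipy 1.17.1, numpy 2.4.6, and for plots matplotlib 3.10.9. The code was tested on simulated data. No sequence is shown, as no genome of the build of the loci was used here.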

Additional observations from a re-analysis of the deposited data

How the results depend on the processing

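No paired analysis was possible because each genotype has 1 library. Against 207 higher and 121 lower regions and a median log2 ratio of 0.11, deposited totals gave 800, 17 and 1.56, and all nuclear reads 1064, 10 and 1.97. The median was -0.021 with TMM factors, 0.0026 with median-of-ratios size factors, -0.077 with the reads outside the top 200 loci and 0.26 outside the top 800, with counts within 1.5 times of those above. Leaving out the largest locus of each region left 832 regions, 29 higher and 31 lower, with a median of -0.15, and 19 and 15 of these calls were shared. A ratio of 8 with an interval beyond 4-fold kept 42 higher and 34 lower. Merge distances of 1, 5 and 20 kb, merging only loci with reads, minimums of 10 and 50 reads, a ratio of 4 with no interval condition, and leaving out the top 400 loci or loci of 30 bp or shorter left both counts within 1.5 times. Among named called regions, no log2 ratio changed sign under any scaling. Without their largest locus, those on scaffold_34, scaffold_281, scaffold_115 and scaffold_73 turned to -0.93, 2.30, 0.53 and 0.19. Scaffold_34 and scaffold_73 had these same values, and scaffold_557 0.54, without the top 400 loci, and scaffold_281 1.41 without short loci. These follow from the loci left out, and few reads remained except on scaffold_557. Scaffold_73 kept 0 reads in rdr2 and 1 in rdr6, and scaffold_281 without short loci 0 and 3. On scaffold_557 Cluster_38916 alone remained, with 82 and 315 reads. At the 20-read minimum a higher call was out of reach, since 20 reads in rdr6 and 0 in rdr2 give a lower bound of 1.87, under the 2-fold bound. The rule is thus not even between directions near the minimum. With a minimum of 10 reads the higher regions stayed at 207 and the lower rose from 121 to 136.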
